A study of Mus musculus with 2 samples.

Results

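The myelin genes described here are Mbp, Mog, Mag, Mobp, Cnp, Mal, Cldn11 and Opalin, 8 of the 32285 genes of the deposited tables, and all 8 were taken by their symbols. They were read in single cells from the optic nerve of NF1-OPG mice, a model of the optic pathway glioma that arises in neurofibromatosis type 1. The 2 droplet libraries, C-ON (titled a control optic nerve) and FMC_new, counted unique molecular identifiers (UMIs) at the 5′ ends of transcripts. Both carry the genotype label NF1-OPG, which the study's methods give as a germline Nf1 mutant allele with a floxed Nf1 allele removed by Cre under the GFAP promoter, on a C57BL/6 background. Mice were 12 weeks old, the suspension pooled 10 mice, and the protocol took optic nerves and meningeal dura. Debris and myelin were removed from the dissociated nerves with kits, so the myelin itself was depleted before cells were loaded. The labels do not say how the libraries differ in treatment, so they were used as 2 replicates of 1 condition, and differences between them were given as values and not as effects.

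Oligodendrocytes wrap the axons of the optic nerve in myelin, a stack of plasma membrane that insulates the axon and lets impulses travel fast. Mbp, the myelin basic protein, holds the inner faces of that membrane together, and Mobp, a small basic protein, sits in the same compact layers. The mRNAs of both are known to travel out of the cell body and to be translated at the growing sheath. Cnp is an enzyme of the uncompacted cytoplasmic channels, Mag faces the axon, Mog lies on the outermost surface, Cldn11 forms the tight junctions of the sheath, Mal is a lipid raft protein that sorts cargo to the myelin membrane, and Opalin is a membrane glycoprotein of mature oligodendrocytes. Some members have known uses outside the sheath: the Mbp locus also gives longer Golli transcripts in immune cells, Mal is known in T cells, Cldn11 in the arachnoid barrier of the meninges, and Schwann cells of peripheral nerve use Mbp and Mag. A table of UMIs per gene cannot separate Golli from classic Mbp transcripts.

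All 8 genes have an entry in the annotation of the files' build (GRCm38). Mobp spans chr9:120149707-120181484 on the plus strand, Cnp chr11:100574904-100591729 on the plus strand, Cldn11 chr3:31149920-31164324 on the plus strand, Mag chr7:30899176-30914873 on the minus strand, Mog chr17:37010743-37023398 on the minus strand, Mal chr2:127633226-127656695 on the minus strand and Opalin chr19:41061710-41077113 on the minus strand. Mbp is the longest, at 110.5 kb with 16 annotated transcripts. The other members run from 12.7 kb (Mog) to 31.8 kb (Mobp). Cldn11 has 1 annotated transcript.

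Promoters are shown for 3 members that part from each other in the results below, Mobp, Opalin and Mog. Mobp, after Mbp, had the smallest range in UMIs per cell over classes other than oligodendrocyte-like. Opalin ranged most among oligodendrocyte-like clusters (5.91-fold), where Mog ranged 1.42-fold. Each promoter is the 250 bases before the transcript start in RefSeq (GRCm38.p6), 5′ to 3′ on the strand of the gene. Every match to ACAAAG or its reverse complement CTTTGT is in capitals. ACAAAG is the core of the site that SOX factors bind, among them Sox10, the factor that opens the myelin programme.
Mobp (chr9:120149492-120149741, plus strand): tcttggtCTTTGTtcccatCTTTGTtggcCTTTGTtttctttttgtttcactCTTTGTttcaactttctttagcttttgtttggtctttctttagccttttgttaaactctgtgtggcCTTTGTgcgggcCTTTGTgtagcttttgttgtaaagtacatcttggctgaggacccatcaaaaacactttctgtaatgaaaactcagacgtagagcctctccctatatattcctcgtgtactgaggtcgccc
Opalin (chr19:41077114-41077363, minus strand): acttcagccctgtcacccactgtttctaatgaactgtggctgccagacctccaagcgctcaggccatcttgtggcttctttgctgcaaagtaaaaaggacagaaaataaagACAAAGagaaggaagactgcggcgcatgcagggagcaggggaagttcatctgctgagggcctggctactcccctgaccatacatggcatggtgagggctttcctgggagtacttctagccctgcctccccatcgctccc
Mog (chr17:37023399-37023648, minus strand): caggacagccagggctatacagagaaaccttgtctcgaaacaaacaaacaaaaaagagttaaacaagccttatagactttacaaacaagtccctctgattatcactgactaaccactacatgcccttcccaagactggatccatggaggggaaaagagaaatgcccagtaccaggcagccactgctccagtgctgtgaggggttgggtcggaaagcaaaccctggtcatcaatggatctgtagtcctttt

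The Mobp window held 6 matches, all of them CTTTGT, and it was the 1 window of 32851 RefSeq promoters of this length with 6 or more. Opalin and Cnp held 1 match each, Mag held 1 in 2 of its 3 listed starts, and Mog, Mal and Cldn11 held none. A match was present in 4 of the 7 member genes with a listed promoter, against 16.5% of all 32851 promoters. The first count is per gene over its 1 or more starts (9 starts in all) and the second per promoter, so the units differ. These are matches of letters in a window, and binding was not measured.

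The libraries held 10845 barcodes (C-ON) and 21341 barcodes (FMC_new), of which 8834 and 16818 passed the cell filter, with medians of 6810.5 and 4676 UMIs per cell. The libraries shared 296 barcode sequences, 188 of them among cells that passed the filter in both. The 8 members made up 2.32% of the UMIs of the C-ON cells and 0.813% of those of the FMC_new cells. Cells were clustered without the members among the variable genes, and 16 classes were named from marker genes other than the members. Oligodendrocyte-like cells numbered 5354 in C-ON and 2096 in FMC_new, tumor-like cells 215 and 1408, T cell-like cells 970 and 3195, microglia-like cells 220 and 1707, border macrophage-like cells 356 and 997, and stromal-like cells 105 and 502. Of the 37 clusters, 7 clusters, with 2746 of 25652 cells, stayed unnamed.

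Myelin genes were highest in oligodendrocyte-like cells in both libraries, for each of the 8 members. The level of a class is the sum of a gene's UMIs over its cells, scaled to the usual common library total (CPM), and since a UMI marks 1 transcript end whatever the gene's length, levels were compared between genes without a length term. Together the members reached 29975 CPM in C-ON and 29360 CPM in FMC_new, or 29667 ± 435 (SD, n = 2 libraries). Mbp led at 7779.7 CPM in C-ON (95% Poisson interval 7754 to 7805) and 7957 CPM in FMC_new (7915 to 7999). Mal stood at 4734 and 4776 CPM, Cnp at 4432 and 3986 CPM, Cldn11 at 4219 and 4068 CPM, and Mag at 3908 and 4153 CPM. These 4 genes are close in level, and the order of Cnp, Cldn11 and Mag differs between the libraries. Mobp stood at 2190.1 and 2181 CPM, Mog at 2069 and 1679 CPM, and Opalin was lowest at 642 and 559.8 CPM. Opalin was also the member missing from most cells of the class, with a UMI in 75.9% and 74.6% of oligodendrocyte-like cells, against 98.1% or more for each of the other 7. Intervals cover counting error only.

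**Figure D1:**
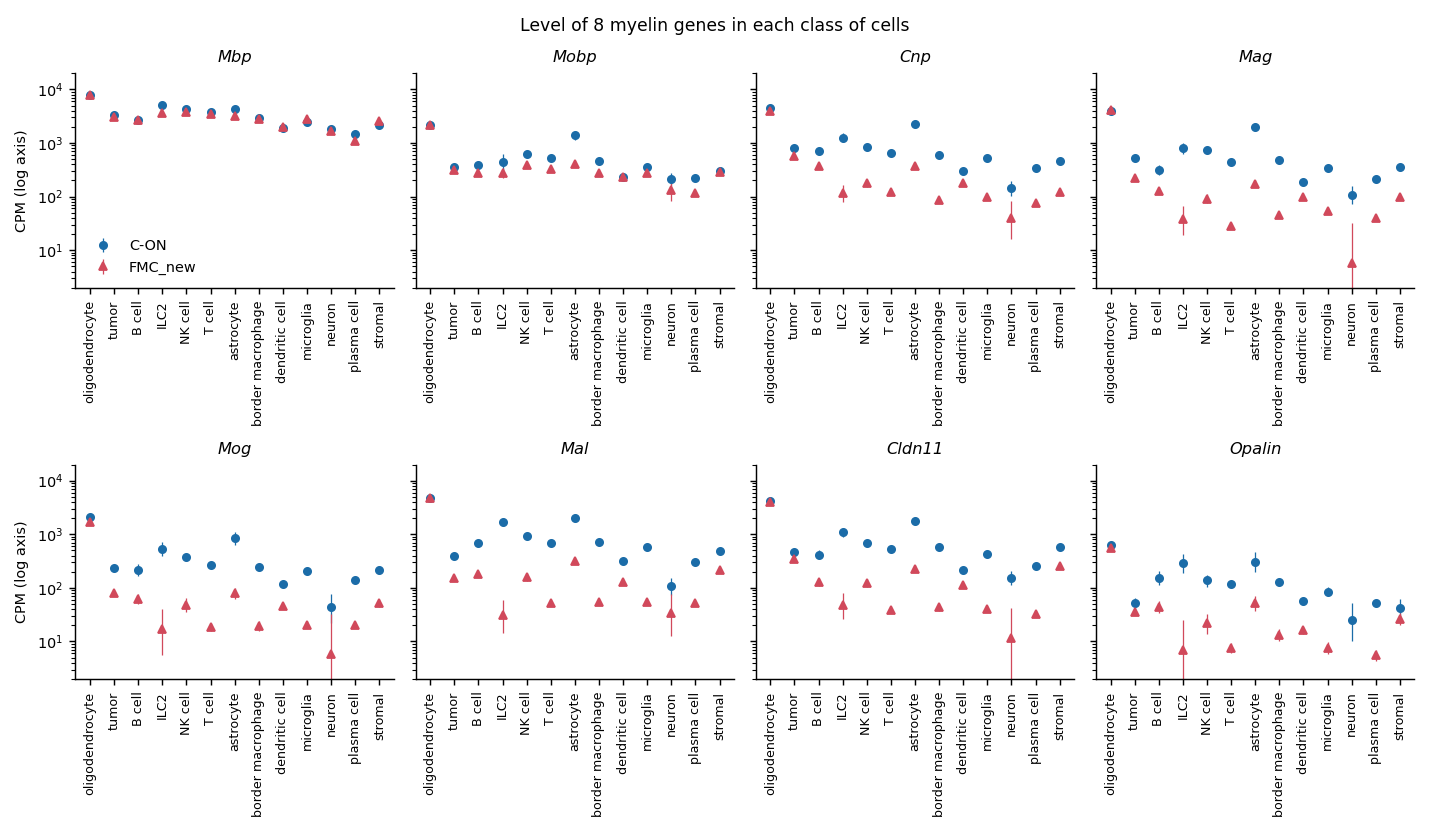
Level of each myelin gene (CPM, log axis) in 13 classes of cells, with C-ON as circles and FMC_new as triangles and 95% Poisson intervals as bars. Oligodendrocyte-like cells are highest for all 8 genes, while Mbp stays above 1000 CPM in every class shown and the other genes spread over a wider range below them.

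To set these levels against cells that do not make myelin, T cell-like cells were taken as the reference. Mbp was still at 3781 CPM in the C-ON T cell-like cells and 3445 CPM in those of FMC_new, which is 48.6% and 43.3% of its level in oligodendrocyte-like cells. Mobp stood at 528 and 327 CPM there, 24.1% and 15% of its oligodendrocyte level. The other 6 genes depended on the library: Mag was at 447 CPM in C-ON and 28.2 CPM in FMC_new, Cldn11 at 535 and 38.4 CPM, Mal at 700.2 and 51.6 CPM, and Mog at 270.5 and 18.4 CPM. Cnp was at 647 and 121 CPM and Opalin at 117 and 7.49 CPM. In each of the 12 classes plotted other than oligodendrocyte-like, the levels of these 6 genes were higher in value in C-ON than in FMC_new.

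All 8 members were higher in oligodendrocyte-like than in T cell-like cells in edgeR's quasi-likelihood test with Benjamini-Hochberg adjustment over 15285 genes, with library as a term (28 sums of class and library). Of all genes tested, 29.5% were called higher and 29.7% lower in this comparison. The classes were themselves built from other genes of the same cells, so the test is not independent of the classes. Mag had the largest log2 fold at 5.27 (SE 0.84, adjusted p = 1.40e-05), followed by Cldn11 at 4.92, Mog at 4.86, Mal at 4.82, Opalin at 4.31 and Cnp at 4.04. Mobp was at 2.43 (SE 0.31, adjusted p = 7.72e-07) and Mbp at 1.16 (SE 0.27, adjusted p = 7.61e-04). Both libraries showed the direction for each gene, but the size was shared only by Mbp and Mobp: Mbp was 2.06-fold higher in C-ON and 2.31-fold in FMC_new, Mobp 4.15-fold and 6.68-fold, and Mag 8.74-fold and 147-fold. The median over the 8 members was 4.56, against -0.03 over all genes tested. With library as a term, the p-values measure how far class differences vary between these 2 libraries, with the spread estimated over all 14 classes. Nothing in the labels says that the 2 libraries came from separate mice.

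The wider myelin programme was higher in the same cells. Of 24 further genes of the myelin membrane and the oligodendrocyte, 24 were called higher in oligodendrocyte-like than in T cell-like cells, with a median log2 fold of 4.73. They include Myrf and Sox10, transcription factors of the lineage (5.04 and 4.31), Ugt8a and Fa2h, enzymes of myelin lipids (5.08 and 4.95), and the gap junction gene Gjb1 (4.89). Bcas1 was the smallest at 1.88 (SE 0.23). Across 26 pairs of class and library, the genes most like the mean of the 8 members on the log2(CPM + 1) scale included, among genes that are not members, Sept4 (Pearson r = 0.987), Itgb4, Hapln2, Efhd1, Klhl4, Gpr37, Gjb1 and Tmem88b (r = 0.971 for the last). Ranked in the same list of 25401 genes, Mog came 2nd, Mag 3rd, Cldn11 5th, Cnp 6th, Mal 11th and Opalin 13th, whereas Mobp came 119th (r = 0.889) and Mbp 482nd (r = 0.716). The pairs share 2 libraries and a mean that holds the members, so these are descriptions.

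Within the oligodendrocyte-like cells, the sum of the members varied little and their mixture varied more. Over the 5 clusters of the class the sum ran from 26208 ± 219 CPM (cluster 12) to 34952 ± 920 CPM (cluster 7; SD, n = 2 libraries), a 1.33-fold range. Opalin ran from 204 ± 77.9 CPM in cluster 0 to 1208 ± 32.8 CPM in cluster 7. That is 5.91-fold, or 4.74-fold in C-ON and 7.93-fold in FMC_new. Mal ranged 1.75-fold (clusters 3 and 0) and Cldn11 1.56-fold (clusters 1 and 0). Mog, Mbp, Mobp, Cnp and Mag ranged 1.42-, 1.39-, 1.37-, 1.35- and 1.25-fold. The highest and the lowest cluster were the same in both libraries for 7 of the 8 genes, with Cnp the exception. The clusters were made from these cells, so their differences are described and not tested.

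**Figure D2:**
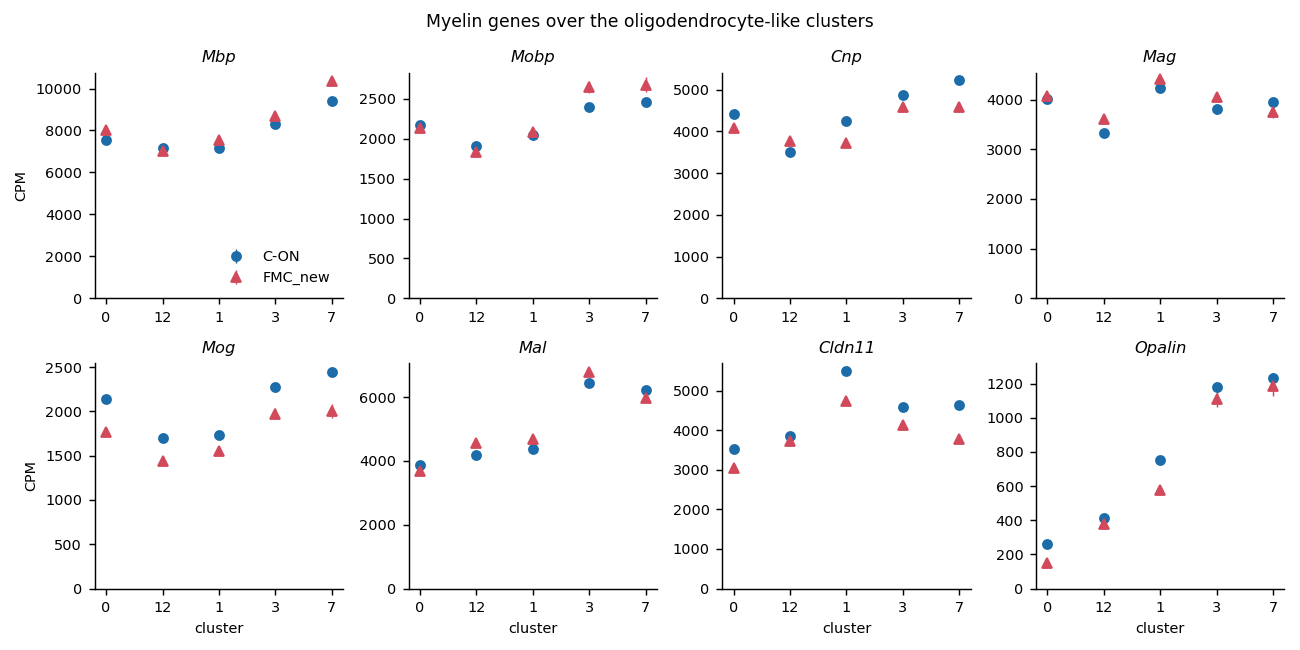
Level of each myelin gene (CPM, linear axis from 0) in the 5 oligodendrocyte-like clusters, C-ON as circles and FMC_new as triangles, with 95% Poisson intervals as bars. Opalin climbs from clusters 0 and 12 to clusters 3 and 7 in both libraries, while Mag is nearly level and Cldn11 is highest in cluster 1.

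The clusters differ in their leading genes. Cluster 12, the lowest in the sum of the members, is led by A530053G22Rik, Ctnna3, Grm3 and Spock1. Cluster 0 is led by Nkx2-9, clusters 3 and 7 by Ptgds, a prostaglandin D synthase, with Wfdc18 and Opalin itself, and cluster 1 by C4b and Serpina3n, genes of reactive oligodendrocytes, with the interferon-induced gene Iigp1. Hopx, a homeodomain protein that does not itself bind DNA, stood opposite to Opalin: it was at 556 and 715 CPM in cluster 0 and at 21.5 and 20.9 CPM in cluster 3 (C-ON and FMC_new). In the same order of clusters, Opalin was at 259.6 and 149 CPM in cluster 0 and at 1182 and 1108 CPM in cluster 3. Gpr17, a receptor of newly committed oligodendrocytes, was at 1.95 CPM or less in all 5 clusters of both libraries.

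The same contrast was seen when single cells, and not clusters, were sorted by their own markers. The first set had at least 3 UMIs of Hopx or Nkx2-9 and none of 5 interferon genes or of the reactive genes Serpina3n, C4b and Steap4. It held Opalin at 145 CPM in C-ON (313 cells) and 67.2 CPM in FMC_new (39 cells). Cells with at least 3 UMIs of Ptgds and none of all those genes held it at 1213 CPM (780 cells) and 1187 CPM (171 cells). Mal followed, at 3728 and 3469.7 CPM in the first set and 6519 and 7107 CPM in the second. Cells with at least 3 UMIs of the interferon genes had the highest Cldn11 of the 4 sets, at 5191 CPM (549 cells) and 4486 CPM (530 cells), together with the lowest Mog, at 1613 and 1501 CPM. Mbp differed less, at 6793 and 7182 CPM in the interferon set and 8609 and 8709 CPM in the Ptgds set. Median depth was 6207 and 5780 UMIs in the Ptgds set and between 8716 and 10447 UMIs in the other sets.

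Single oligodendrocyte-like cells showed loose coupling of the members. With each cell thinned to 1000 UMIs, the Spearman correlation across 5339 cells of C-ON and 2063 cells of FMC_new was 0.30 and 0.27 for Mal with Opalin and 0.25 and 0.20 for Mal with Cldn11. For Mbp with each of the other members it lay between -0.04 and 0.15. The variance over the mean of the thinned UMIs, was 2.18 and 2.21 for Mbp, 1.88 and 2.07 for Mal and 1.12 and 1.10 for Mog. All points share a library and an equal depth, and sparse counts pull each correlation toward 0.

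Tumor-like cells, the candidate glioma cells of the model, formed 2 clusters, cluster 9 led by C1ql1, Pdgfra, Cspg5 and Vcan, and cluster 19 led by Gpr17, Neu4 and Tnr, all genes known from oligodendrocyte precursors. The members summed to 6234 CPM in C-ON and 4777 CPM in FMC_new, or 5505 ± 1031 (SD, n = 2 libraries). Mbp gave most of it, at 3394 and 3049 CPM, between its levels in B cell-like and T cell-like cells. Cnp was next at 821 and 574 CPM, followed by Cldn11 at 469 and 352 CPM and Mag at 523 and 225 CPM. Opalin stood at 51.8 and 35.0 CPM.

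To compare tumor-like cells by Gpr17, cells with a UMI of it were set against those without. In cluster 9, 47.9% and 51.1% of cells had one, and in cluster 19 52.4% and 21.4%, against 0.103% and 0.188% of T cell-like cells. A single UMI is a thin mark, and a cell without one may still express the gene. None of the 8 members was called in edgeR, and neither were any of the 24 other myelin genes. In this comparison 0.0196% of the 15285 genes were called higher (3 genes) and 0.0785% lower (12 genes). DESeq2 also called 0 of the 8, and no member had an unadjusted p under 0.05. Cnp was at 919 and 789 CPM with Gpr17 and at 719.5 and 379 CPM without (log2 fold 0.74, SE 0.54, adjusted p = 1). Cldn11 was at 557 and 452 CPM against 379 and 261 CPM (0.64, SE 0.77, adjusted p = 1). Cells with a Gpr17 UMI were also deeper, with medians of 5608 and 6099.5 UMIs against 4809 and 4062.5. By cluster and not by this mark, Cnp was at 2139 and 1202 CPM in cluster 19, led by Gpr17, and at 658 and 382 CPM in cluster 9, with medians of 6924 and 2128 UMIs against 5228.5 and 6253. Clusters were made from these cells, so this is a description.

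Tumor-like cells without Gpr17 gave 0 calls of 8 against T cell-like cells, where 29.2% of genes were called higher and 21.9% lower. DESeq2 also gave 0 calls, and the smallest unadjusted p was 0.127 (Mobp). At clustering resolution 0.4 the count was 4, all lower in tumor-like cells (Mal -1.33, Opalin -1.44, Mobp -0.93 and Mbp -0.63), in a fit that called 4131 genes higher and 3898 lower of 15909. At the resolution used throughout, 10 of the 24 other myelin genes were higher: the lineage factor Sox10 (log2 fold 4.24, SE 0.75), Cd9 (4.60, SE 0.62), Pllp, Omg, Gal3st1, Bcas1, Ugt8a, Enpp6, Plekhb1 and Sirt2. Against tumor-like cells with Gpr17, oligodendrocyte-like cells were higher for 8 of 8 members, where 18.9% of genes were called higher and 27.0% lower. Mal differed most (log2 fold 5.39, SE 0.86), followed by Mog at 4.44, Mag at 4.19, Opalin at 3.97, Cldn11 at 3.52, Mobp at 3.44, Cnp at 2.74 and Mbp at 1.90 (SE 0.27). Among the 24 other genes 17 were higher and Cd9 was lower (-1.55, SE 0.54).

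Part of the myelin RNA of tumor-like cells sat in cells that also held markers of mature oligodendrocytes. Of the tumor-like cells, 56.7% in C-ON and 39.6% in FMC_new had at least 5 UMIs of 11 oligodendrocyte markers that are not members (Ermn, Gpr37, Ugt8a, Aspa, Hapln2, Gjb1, Nkx6-2, Fa2h, Enpp2, Anln and Tspan2, some of them known in precursors too). With those cells left out, a choice made after the values were seen, Cnp remained at 303 CPM (95% interval 254 to 358) in C-ON and 284 CPM (267 to 301) in FMC_new. T cell-like cells treated the same way had Cnp at 168 CPM (154 to 183) and 103 CPM (97.3 to 109). Cldn11 was at 66.3 and 105 CPM against 68.7 and 26.4 CPM in T cell-like cells, so that only the FMC_new values lay apart. In FMC_new, Mag was at 32.1 CPM and Mog at 17.5 CPM in the tumor-like cells that were left. Cell doublets and cells that express both programmes cannot be told apart in these tables.

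**Figure D3:**
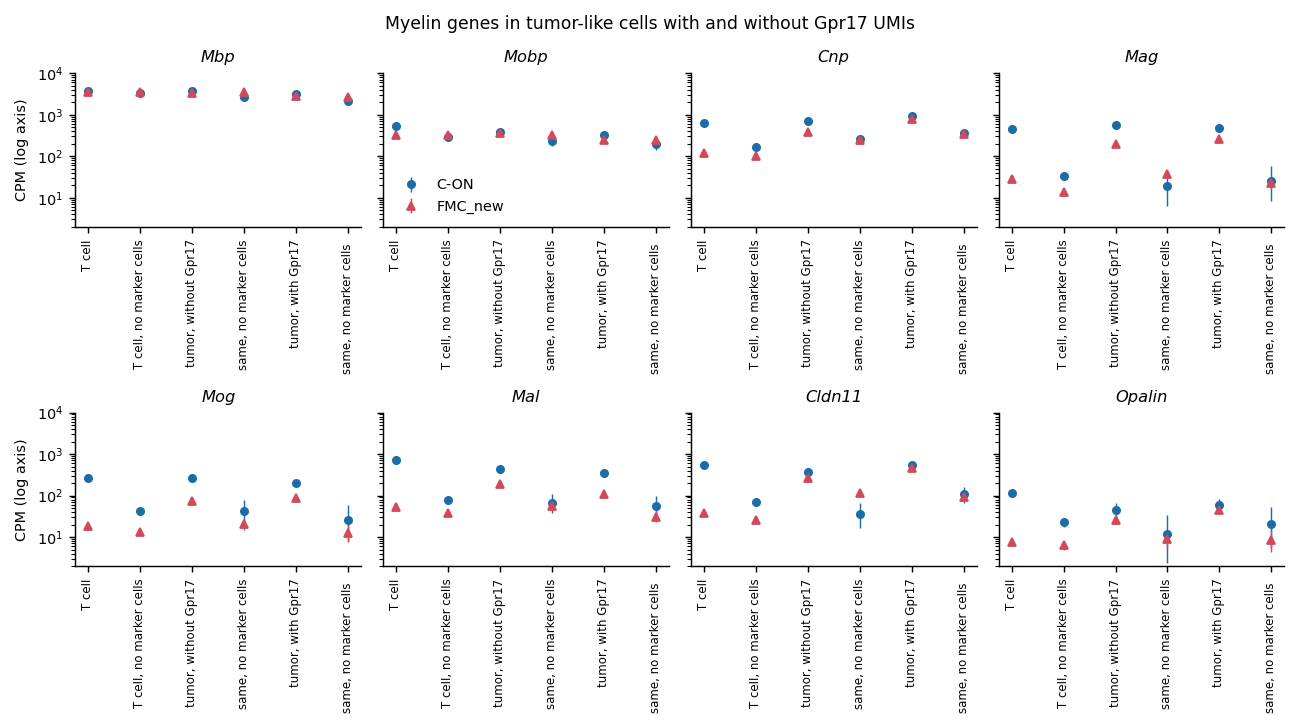
Level of each myelin gene (CPM, log axis) in T cell-like cells and in tumor-like cells without and with Gpr17 UMIs, each with all cells and without the cells that hold at least 5 UMIs of 11 oligodendrocyte markers. Circles are C-ON, triangles FMC_new, bars 95% Poisson intervals. Once the marker-holding cells are left out, Mobp in T cell-like cells goes from 528 to 294 CPM in C-ON and from 327 to 322 CPM in FMC_new, and Cnp in tumor-like cells stays above its T cell-like level in both libraries.

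Mbp was found in most cells of every class. In FMC_new, 94.0% to 100% of the cells of each of 15 classes other than oligodendrocyte-like had an Mbp UMI, and in C-ON 75% to 98.0% over 12 classes. Its level ranged 3.88-fold over those classes of FMC_new, from 1092 CPM in plasma cell-like to 4238 CPM in neutrophil-like cells. The mean number of Mbp UMIs per cell ranged only 1.36-fold, from 12.2 in plasma cell-like to 16.6 in tumor-like cells, while the median depth of the classes ran from 2481 to 12072 UMIs. In C-ON the corresponding ranges were 3.51-fold for the level and 1.44-fold per cell, from 13.7 in stromal-like to 19.8 in tumor-like cells. Mobp behaved alike in FMC_new, with 1.15 to 1.67 UMIs per cell (1.45-fold) against 4.26-fold in level. Mag ranged 29.1-fold per cell and Cldn11 19.2-fold over the same classes.

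Depth within a class was looked at next. T cell-like cells of FMC_new, split into 4 bins of equal size by depth (medians of 1710 to 5457 UMIs), had means of 11.1, 11.7, 12.6 and 13.5 Mbp UMIs per cell. Those of C-ON had 9.60, 10.7, 14.0 and 24.5, so the deepest bin of that library stood apart. Oligodendrocyte-like cells of FMC_new had 36.5, 59.1, 71.4 and 91.8 over bins with medians of 3967.5 to 12458 UMIs. Plasma cell-like cells of FMC_new, the deepest class, had 12.8, 11.8, 12.3 and 11.8 over bins with medians of 3158.5 to 18165 UMIs. Gh, the growth hormone gene of the pituitary, gives another yardstick in FMC_new, since no cell of the nerve is known to make it. Its median over the class was 13 UMIs per cell in T cell-like and microglia-like cells, 12 in tumor-like cells and 12.5 in oligodendrocyte-like cells. Its means over bins by depth were less even, at 14.1, 16.9, 17.5 and 24.95 in T cell-like cells. They went from 17.6 in the shallowest to 70.4 in the deepest bin of border macrophage-like cells, and from 12.8 to 36.4 in tumor-like cells. In microglia-like cells they were 14.9, 20.3, 17.7 and 15.3, with no steady rise. No Gh UMI was found in the 970 T cell-like or the 5354 oligodendrocyte-like cells of C-ON. Border macrophage-like cells of FMC_new had 10.8, 13.2, 13.8 and 15.8 Mbp UMIs per cell over such bins. Dendritic cell-like cells had 13.4, 13.1, 13.5 and 17.7, tumor-like cells 15.2, 15.4, 15.1 and 20.7, and microglia-like cells 13.7, 14.4, 13.8 and 13.8. In each of these classes of FMC_new, and in T cell-like and plasma cell-like cells, Mbp changed less with depth than in oligodendrocyte-like cells. Free RNA and myelin carried on or in a cell cannot be told apart here, and neither was tested.

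**Figure D4:**
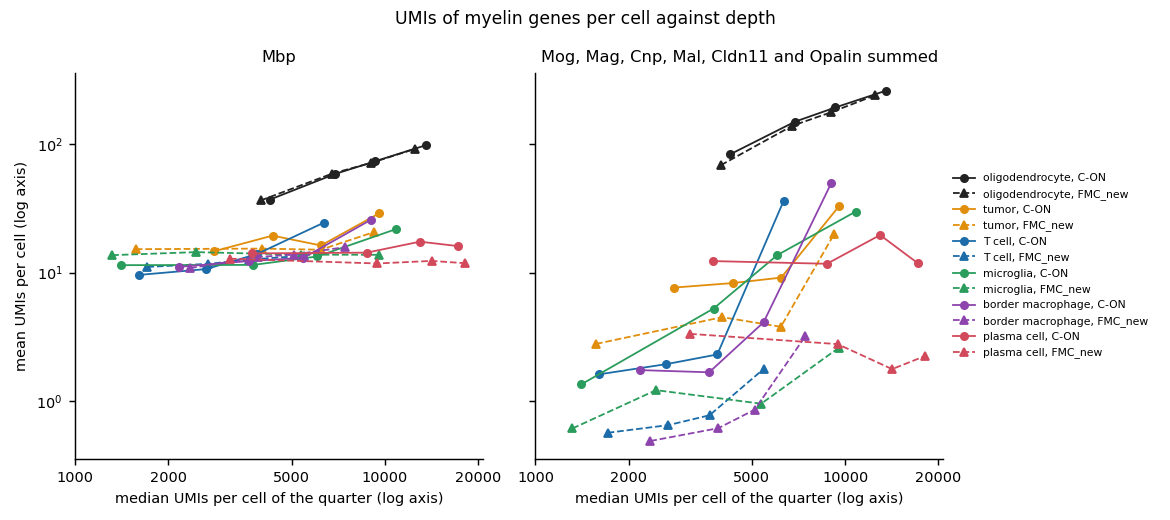
Mean UMIs per cell (log axis) of Mbp, left, and of Mog, Mag, Cnp, Mal, Cldn11 and Opalin summed, right, against the median depth (log axis) of each of 4 bins of a class by depth, with C-ON as full lines and FMC_new as dashed lines. Mbp is higher in deeper oligodendrocyte-like cells and changes less with depth in the other classes of FMC_new. In most C-ON classes it is highest in the deepest bin. The other 6 genes differ between libraries and reach their highest values in the deepest bin of several C-ON classes.

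The other 6 genes were spread unevenly over the cells. In C-ON, 6.91% of T cell-like cells had at least 20 UMIs of the 6 genes, and the top 5% of cells held 79.7% of all their UMIs in the class. In FMC_new 0.282% of T cell-like cells had as many. Outside the oligodendrocyte-like class, where 97.7% and 95.7% of cells had as many, the share ran from 2.86% (neuron-like) to 30% (astrocyte-like) over the classes of C-ON and from 0 to 5.40% (tumor-like) over those of FMC_new. All 67 such T cell-like cells of C-ON held at least 5 UMIs of the 11 oligodendrocyte markers, and so did all such cells of the other classes outside the oligodendrocyte-like one but 88.9% of them in stromal-like and 98.7% in tumor-like cells of FMC_new. Without the marker-holding cells, the members summed to 3988 and 3962 CPM in T cell-like cells (C-ON and FMC_new), where they had been at 7026 and 4037 CPM with them.

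Mbp itself was little touched by that step in FMC_new and was lower after it in C-ON. Without marker-holding cells it was at 3279.9 CPM in C-ON and 3439.8 CPM in FMC_new T cell-like cells, against 3781 and 3445 CPM with them. Its variance over the mean across cells, of counts not thinned, was 21.3 and 11.8, against 1.15 and 1.03 for Mog. A rare gene such as Mog is held near 1 by its low counts, so these values do not compare how evenly the genes were spread. Without marker-holding cells, Mobp was lower relative to Mbp outside the oligodendrocyte-like class than in it. Mobp gave 28.1 and 27.4 UMIs per 100 UMIs of Mbp in oligodendrocyte-like cells, and 8.98 and 9.36 in T cell-like, 9.80 and 9.18 in microglia-like, 9.07 and 9.56 in border macrophage-like, 9.95 and 9.79 in plasma cell-like and 9.07 and 9.01 in tumor-like cells. With all cells kept, T cell-like cells gave 14.0 and 9.48, and values outside the oligodendrocyte-like class ran from 7.43 (ILC2-like, FMC_new) to 32.2 (astrocyte-like, C-ON). The lowest and highest values over all classes with at least 20 such cells were 6.43 (ILC2-like) and 13.8 (neuron-like), both from C-ON classes of 22 and 30 cells. The other 6 genes summed gave 257 and 242 UMIs per 100 of Mbp in oligodendrocyte-like cells, and 12.6 and 5.81 in T cell-like cells without marker-holding cells.

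**Figure D5:**
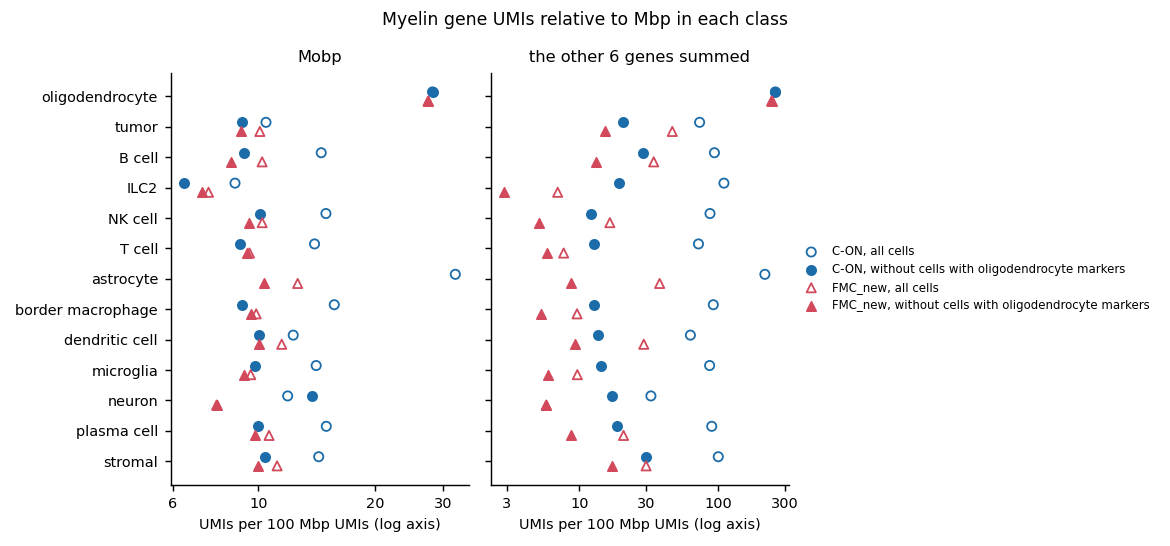
UMIs of Mobp, left, and of the other 6 myelin genes summed, right, per 100 UMIs of Mbp (log axis) in each class, with C-ON as circles and FMC_new as triangles, open for all cells and filled without cells that hold oligodendrocyte markers; classes with fewer than 20 such cells have no filled point. Oligodendrocyte-like cells are at 28.1 and 27.4 for Mobp and the filled points of the other classes lie between 6.43 and 13.8, while the open point of the 20 astrocyte-like cells of C-ON reaches 32.2.

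Mbp went with Mobp across single T cell-like cells. T cell-like cells without oligodendrocyte markers and with at least 1000 UMIs were used, and their counts were not thinned. The Spearman correlation of Mbp with Mobp was 0.44 in C-ON (860 cells) and 0.52 in FMC_new (3103 cells). It was between -0.01 and 0.09 with each of the other 6 members, and 0.07 with Gh in FMC_new. In oligodendrocyte-like cells, thinned to 1000 UMIs, Mbp and Mobp correlated at 0.08 and 0.15. Thinned and unthinned counts are unlike measures, so the values of these classes were not compared. The T cell-like points of a library differ in depth, which was not adjusted for. Mobp is the most abundant of the other 7 members in T cell-like cells, which bears on how large a correlation sparse counts can show.

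Microglia and border macrophages, which clear myelin debris in the injured nerve, were compared with T cell-like cells. None of the 8 members was called in either, by edgeR or by DESeq2, and no member had an unadjusted p under 0.05 in edgeR. For microglia-like cells 19.6% of genes were called higher and 14.4% lower, and for border macrophage-like cells 17.5% and 13.2%. Mbp was at 2509 and 2850.3 CPM in microglia-like cells (log2 fold -0.14, SE 0.26, adjusted p = 0.758). Mag was at 348 CPM in C-ON and 54.5 CPM in FMC_new (0.29, SE 0.70, adjusted p = 0.824), below the T cell-like level in the first library and above it in the second. Of the 24 other myelin genes, Cd9 alone was higher in each (3.93, SE 0.60, in microglia-like and 2.23, SE 0.56, in border macrophage-like cells), a tetraspanin that macrophages also make.

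Mag was present in a larger share of the phagocytes. Without marker-holding cells, 24.1% of microglia-like and 20.7% of border macrophage-like cells of C-ON had a Mag UMI, against 10.5% of T cell-like cells, and in FMC_new the shares were 12.2%, 10.6% and 4.49%. Median depths were 4420 and 4109 UMIs against 3051 in C-ON, and 3714 and 4377 against 3128 in FMC_new. In level, Mag was at 53.2 CPM (95% interval 40.3 to 68.9) and 49.6 CPM (38.9 to 62.2) against 32.9 CPM (26.8 to 40.0) in C-ON, and at 29.4 CPM (25.8 to 33.4) and 24.6 CPM (20.3 to 29.4) against 13.8 CPM (11.7 to 16.2) in FMC_new. With each cell thinned to 1000 UMIs microglia-like, border macrophage-like and T cell-like cells had a share of 2.66%, 5.66% and 4.07% (C-ON) or 3.21%, 2.66% and 1.55% (FMC_new), so the order of the microglia-like and T cell-like cells held in FMC_new alone. In microglia-like cells the mean was 0.29 (C-ON) and 0.14 (FMC_new) Mag UMIs per cell. These are low counts, and the difference was not called in the fit above.

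Stromal-like cells, named from fibroblast markers, were also compared with T cell-like cells. Mbp was called lower than in T cell-like cells (log2 fold -0.81, SE 0.26, adjusted p = 0.0157) and was the 1 call of 8, where 25.0% of genes were called higher and 20.5% lower. Without the filter on low counts none of the 8 was called. Per cell, Mbp stood at 13.7 and 12.3 UMIs in stromal-like against 14.7 and 12.2 in T cell-like cells (C-ON and FMC_new), and at 8.69 and 11.6 against 11.4 and 12.1 without marker-holding cells. Cldn11 was at 577 CPM in C-ON and 252 CPM in FMC_new, against 535 and 38.4 CPM (log2 fold 1.05, SE 0.79, adjusted p = 0.297). With marker-holding cells left out, Cldn11 was at 210 CPM (95% interval 171 to 254) and 192 CPM (174 to 210) in stromal-like cells and at 68.7 CPM (59.8 to 78.6) and 26.4 CPM (23.5 to 29.6) in T cell-like cells. It was then called higher (log2 fold 1.85), and Mobp, Cnp and Mbp were called lower, so that 4 of 8 members passed the test in place of 1. That fit called 3683 genes higher and 3972 lower of 15000, a share like that of the members.

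The share of stromal-like cells with a Cldn11 UMI was then 54.1% in C-ON and 39.4% in FMC_new, against 20% and 8.37% of T cell-like cells, and after thinning it was 22.6% and 18.4% against 7.79% and 3.19%. Mal was at 124 and 119 CPM in stromal-like against 78.8 and 36.9 CPM in T cell-like cells. Prx, a gene of myelinating Schwann cells, was near 0 in stromal-like cells, with 0 and 2 UMIs over 105 and 502 cells. Aspa and Cd9 were the other myelin genes called higher in the full set of stromal-like cells (1.92, SE 0.64, and 3.08, SE 0.58).

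Cnp also stood above the T cell-like level in B cell-like cells once marker-holding cells were left out. It was at 301 CPM (95% interval 235 to 381) in B cell-like cells of C-ON and 254 CPM (228 to 282) in those of FMC_new, against 168 and 103 CPM in T cell-like cells. The share of B cell-like cells with a Cnp UMI was 66.7% and 60.6%, and 30.8% and 21.1% after thinning, against 16.9% and 10.9% of T cell-like cells after thinning. Dendritic cell-like cells had a UMI in 52.6% and 45.8% of cells, but their level was 110 and 102 CPM, at or below that of T cell-like cells. B cell-like cells numbered 39 and 289 after this step, and the difference was not among the contrasts tested.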

How the data were processed

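Single cells from the optic nerve of NF1-OPG mice were measured in 2 droplet libraries, C-ON and FMC_new. The deposited counts are unique molecular identifiers per gene and barcode, which the authors made with Cell Ranger against mm10. The submitters' processing notes name Cell Ranger 7.2.0 and Seurat 5.2.1, while the study's methods name an earlier version of Cell Ranger. The default counting of intronic reads differs between these versions, and the setting used is not given in the sources used here, so UMIs may or may not include unspliced RNA. Replicates were not pooled. Both libraries carry 1 genotype label and form 1 group.

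Cells with 500 to 5000 genes, 500 to 20000 UMIs and at most 5% mitochondrial UMIs were kept, 8834 of 10845 barcodes in C-ON and 16818 of 21341 in FMC_new. They were log-normalized and integrated with Seurat 5.3.0 (R 4.3.3) on 2000 variable features without the 8 members, 30 components and resolution 0.8. Clusters were named from 22 marker lists, some added after the leading genes of clusters had been seen, and a cluster needed at least 3 detected markers. Levels are summed UMIs scaled to a common total (CPM) with exact Poisson intervals (95%). Thinned values draw 1000 UMIs from each cell. For tests, UMIs were summed by class and library (28 sums of 14 classes with at least 20 cells in each library) and fitted with edgeR 4.0.16 (quasi-likelihood, TMM, filterByExpr, class and library as terms, 13 residual degrees of freedom). Library is thus a block in this fit. The SE was taken as the log2 fold over the root of F. An adjusted p under 0.05 was called, and the test was tried on simulated data. DESeq2 1.42.0 was an alternative. Scrublet (scanpy 1.11.5) marked 1 of 8834 and 0 of 16818 cells, so it had not worked and no doublets were removed.

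The genes named are the 8 members, the 10 genes most like their mean, and fixed lists of 24 other myelin genes, stage, state, pituitary and Schwann cell genes. Some genes of these lists are counted but not reported here by name. The members and all lists were chosen with earlier results of these data known.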

Additional observations from a re-analysis of the deposited data

Results flagged for a closer look

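Barcodes outside the cell filter also held myelin RNA. Those with under 500 genes held the 8 members at 25417 CPM in C-ON (756 barcodes) and 18490 CPM in FMC_new (2871 barcodes), where T cell-like cells were at 7026 and 4037 CPM and oligodendrocyte-like cells at 29975 and 29360 CPM. Mbp made 15.3 and 14.4 UMIs per barcode there. Those with over 5000 genes or 20000 UMIs held the members at 19431 CPM in C-ON (633 barcodes) and 3750.5 CPM in FMC_new (1046 barcodes). They were singled out because no comparison used them and they lay above the limit that a count of 0 allows.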

How the results depend on the processing

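Leaving out 1 library moved the summed members between 29360 and 29975 CPM in oligodendrocyte-like, 4777 and 6234 in tumor-like, 3397 and 5032 in microglia-like and 4037 and 7026 in T cell-like cells, and the range over oligodendrocyte-like clusters between 1.30 and 1.37. The median log2 ratio of the members, a value with no test, ran from 2.77 to 6.37 for oligodendrocyte-like against T cell-like cells and from 2.99 to 3.39 against tumor-like cells with Gpr17. It changed sign for microglia-like (-0.36 to 0.059), border macrophage-like (-0.045 to 0.077), stromal-like (-0.52 to 1.67) and tumor-like cells without Gpr17 (-0.23 to 1.83) against T cell-like cells, and for tumor-like cells with against without Gpr17 (-0.27 to 0.37). The sum in oligodendrocyte-like cells was 28985 CPM with the members among the variable features, 29020 with SCTransform, 30452 as a mean of per-cell CPM, 30441 after thinning and 29042 with the cluster led by Gh and Prl kept. In tumor-like cells it was 6608 per cell, 4393 without the top 10% of Scrublet scores and 3602 without marker-holding cells. In microglia-like cells it was 5980.3 at resolution 0.4, 5854 at 1.2, 6045 per cell, 5709.9 after thinning and 2805 without marker-holding cells. The cluster range was 1.64 with the members among the features and 1.27 with SCTransform. Members called in stromal-like cells were 0 without the count filter, 2 against NK cell-like cells, 5 at resolution 0.4, 3 without the top Scrublet scores and 4 without marker-holding cells, and in tumor-like cells without Gpr17 4 at resolution 0.4 (all lower) and 2 without the top scores. At resolution 0.4 the log2 fold against T cell-like cells was -1.34 for Mog in stromal-like and -1.33 for Mal in tumor-like cells without Gpr17. The cause was not tested. The alternatives that drop the top Scrublet scores or marker-holding cells, or keep the Gh and Prl cluster, were chosen after seeing the data. Leaving out cells marked by Scrublet was not run, and no border macrophage-like class was found at resolution 1.2. No paired analysis was possible because the libraries form 1 group, and library was already a term of the fit. For the 6 genes other than Mbp and Mobp the SE of a log2 fold was 0.54 to 0.91, which limits the differences these 2 libraries could show.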

Other observations

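Clusters that stayed unnamed also held myelin RNA. Cluster 13, led by Prl and Gh, had the 8 members at 32616 CPM in C-ON (378 cells) and 10333 CPM in FMC_new (384 cells). Leading genes were ranked with both libraries together, and the oligodendrocyte-like cells of C-ON held no Gh. The best match of cluster 13 among the marker lists was oligodendrocyte, with 8 markers. Cluster 20 had them at 23045 CPM (51 cells) and 19654 CPM (435 cells), and cluster 29, led by Arhgap22, Lrmda and Tbxas1, at 21608 CPM (38 cells) and 18861 CPM (198 cells). Among the named clusters, microglia-like cluster 15 stood at 12437 CPM (45 cells) and 7965 CPM (593 cells) and microglia-like cluster 5 at 4450 CPM (175 cells) and 2596 CPM (1114 cells). Cluster 15 was the shallower, with medians of 1489 and 1703 UMIs against 5825 and 5874, and members per cell were 25.6 and 16.7 UMIs against 30 and 16.5. Within the tumor-like class, cluster 19 stood at 11539 CPM (21 cells) and 9855 CPM (509 cells), and cluster 9 at 5581 CPM (194 cells) and 3226 CPM (899 cells). Their median depths were 6924 and 2128 UMIs against 5228.5 and 6253, and members per cell were 75.5 and 34.7 UMIs against 32.1 and 21.1.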
